A study of Mus musculus with 12 samples.

Results

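The 10 genes described here encode the liver X receptors, which are Nr1h3 (LXR alpha) and Nr1h2 (LXR beta), and the transporters and enzymes of sterol efflux that these receptors are known for. They are Abca1, Abcg1, Abcg5, Abcg8, Mylip, Lpcat3, Pltp and Scarb1. The genes were chosen by name, and all 10 were found among the 21705 genes measured. The livers came from wild-type C57BL/6J female mice aged 10 to 12 weeks, and their messenger RNA was sequenced. Mice in the saline group (n = 6) received saline alone through the tail vein. Mice in the LNA29 group (n = 6) received one injection of LNA29, in which a locked nucleic acid against miR-29a and another against miR-29b/c were each dosed at 20 mg/kg. Livers of both groups were taken on day 7 after an 18 h fast. A locked nucleic acid is a chemically stiffened oligonucleotide that binds a microRNA and blocks it. Both groups are whole liver, so for any gene fewer cells of a type and less RNA per cell cannot be told apart. Animals given a locked nucleic acid against another microRNA were not analysed here.

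Liver X receptors are nuclear receptors that bind oxysterols, the oxidised derivatives of cholesterol, and pair with retinoid X receptors on DNA. When active they raise the export of cholesterol. Abca1 and Abcg1 move cholesterol onto apolipoprotein A1 and HDL particles, and the half-transporters Abcg5 and Abcg8 pair to secrete sterols into bile. Mylip (also called IDOL) is a ubiquitin ligase that marks lipoprotein receptors for degradation, Lpcat3 places polyunsaturated chains in phospholipids, and Pltp transfers phospholipids between lipoproteins. Scarb1 is the HDL receptor through which the liver takes up cholesteryl esters.

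The treatment was aimed at the microRNAs that share the seed in capitals below (bases 2 to 8 of each mature sequence, from RefSeq, GRCm38.p6), and they are shown because a message that carries the complement of this seed is a candidate for direct relief.
mmu-miR-29a-3p: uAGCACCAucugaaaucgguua
mmu-miR-29b-3p: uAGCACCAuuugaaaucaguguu
mmu-miR-29c-3p: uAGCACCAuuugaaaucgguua
The complement of the seed, TGGTGCT, was searched on the transcript strand of the 3′ UTRs in GENCODE M21 (GRCm38). Only Abcg5 among the 10 genes carried it, as 1 match at position 182 of its 254-base 3′ UTR. The match lies in exon 13 of 13 on the minus strand, at chr17:84658300-84658306, and is shown in capitals with its flanks because it is the single match in this set.
Abcg5 match: gggcaatgTGGTGCTtggacatt
Of the 12144 tested genes with a 3′ UTR, 1877 (15.5%) carried TGGTGCT. The Abcg5 match is not followed by the A that lies opposite base 1 of the microRNA. The longer form TGGTGCTA was in none of the 10 genes and in 399 of the 12144 (3.29%).

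Values are the deposited signal, in which each library was scaled to an upper quartile of 1000 over the genes that had reads. One read was worth between 9.80 and 24.4 of this unit. Saline libraries held between 8217212 and 19062437 reads on genes, and LNA29 libraries between 7696081 and 15079236. Fold changes are given as differences of log2(value + 1), LNA29 against saline. A gene without reads is set to 1, below the worth of 1 read, so the change of genes with few reads depends on that value. Fold changes come from limma, with Benjamini-Hochberg adjustment over the 12486 genes whose mean value reached 10. The exact test is a two-sided permutation over all 924 divisions of the 12 livers into groups of 6, and the smallest p it can give is 0.00216. Col3a1, a collagen gene targeted by miR-29, ranged from 157.9 to 317.5 in saline livers and from 341.5 to 937.5 in LNA29 livers, without overlap (limma adjusted p = 0.0438). Col1a1, another collagen gene targeted by miR-29, ranged from 93.8 to 333.3 and from 146.3 to 698.1, with overlap (log2 fold change 0.70, limma adjusted p = 0.688, exact p = 0.123).

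The mean was lower in LNA29 livers than in saline livers for 8 of the 10 genes and higher for 2, Mylip and Lpcat3. In none of the 10 did all LNA29 livers lie below all saline livers, as they did for 0.713% of all tested genes. None of the 10 passed limma with an adjusted p under 0.05, whereas 0.16% of all tested genes did (20 of 12486). The smallest adjusted p among the 10 was 0.324, for Abcg8. Without adjustment, 3 were lower with a limma p under 0.05 (Nr1h2, Abcg8 and Pltp), against 5.97% of all tested genes. The exact test gave a p under 0.05 for 1 of the 10, Abcg8, against 6.34% of all tested genes in the same direction. The median log2 fold change of the 10 was -0.34. Over all tested genes the median was -0.093, and 61.4% of genes were lower in LNA29 livers.

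**Figure D1:**
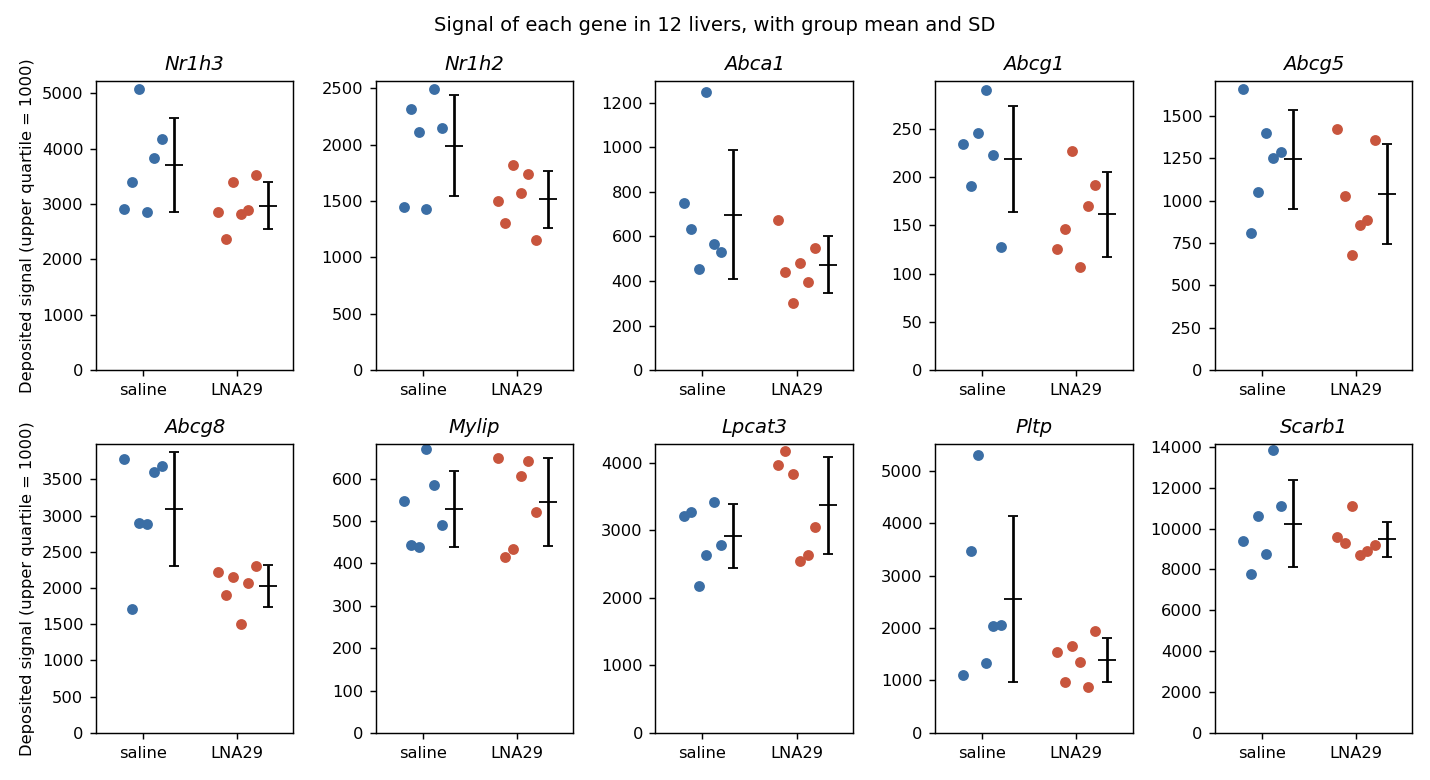
Deposited signal of each of the 10 genes (y axis, upper quartile of each library = 1000, starting at 0) in 6 saline livers (blue) and 6 LNA29 livers (red), 1 point per liver, with the group mean and SD as a black dash and bar. For Abcg8, 5 of the 6 saline livers lie above every LNA29 liver, while for Mylip and Scarb1 the groups lie over each other.

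Among the receptors, Nr1h3 ranged from 2850 to 5088 in saline livers with a median of 3613, and from 2366 to 3521 in LNA29 livers with a median of 2868. All 6 LNA29 livers were below the saline median, and 3 saline livers were above every LNA29 liver. The means were 3708 ± 850.1 and 2973 ± 422.6 (SD, n = 6 each). This was a log2 fold change of -0.30 with a 95% confidence interval from -0.63 to 0.03 (standard error 0.16, limma adjusted p = 0.694, exact p = 0.0823).

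Nr1h2 ranged from 1431 to 2496 in saline livers with a median of 2127, and from 1151 to 1820 in LNA29 livers with a median of 1536. Again all 6 LNA29 livers were below the saline median, and 4 saline livers were above every LNA29 liver. The other 2 saline livers, replicates 43 and 49, had 1448 and 1431 and lay within the LNA29 range. Its log2 fold change was -0.38 with a 95% confidence interval from -0.75 to -0.01 (standard error 0.17, limma adjusted p = 0.617, exact p = 0.0584).

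Any difference between the responses of the 2 receptors was within the spread between livers. The log2 ratio of Nr1h3 to Nr1h2, which does not depend on the scaling of a library, averaged 0.90 in saline livers and 0.98 in LNA29 livers. The difference was 0.08 with a 95% interval from -0.26 to 0.45 (exact p = 0.677, adjusted p = 0.825 over the 3 ratios tested).

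The pumps that move cholesterol onto apolipoprotein A1 and HDL particles had few reads. Abca1 rested on 16 to 125 reads per liver and Abcg1 on 6 to 29. Abca1 had 750.0, 634.9, 456.1, 1250, 565.7 and 529.4 in saline replicates 43, 45, 47, 49, 51 and 53. It had 675.0, 439.0, 301.9, 482.1, 396.2 and 547.9 in LNA29 replicates 44, 46, 48, 50, 52 and 54. Replicates 48, 52 and 46 of the LNA29 group were below the lowest saline liver, and saline replicate 49 was far above all others. For Abca1 the log2 fold change was -0.52 with a 95% confidence interval from -1.04 to 0.01 (standard error 0.25, limma adjusted p = 0.634, exact p = 0.0714). Without saline replicate 49 it was -0.33 (exact p = 0.145).

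Abcg1 ranged from 127.5 to 290.0 in saline livers with a median of 228.3, and from 107.1 to 226.4 in LNA29 livers with a median of 158.1. All 6 LNA29 livers were below the saline median, but saline replicate 53 was below 4 of them. For Abcg1 the log2 fold change was -0.44 with a 95% confidence interval from -1.03 to 0.16 (standard error 0.28, limma adjusted p = 0.770, exact p = 0.0909). The log2 ratio of Abca1 to Abcg1 differed by -0.08 between the groups, with a wide interval from -0.89 to 0.69 (exact p = 0.825, adjusted p = 0.825).

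The smallest p of the set belonged to Abcg8 of the biliary pair. Its values were 3781, 1714, 2895, 2880, 3596 and 3676 in saline replicates 43, 45, 47, 49, 51 and 53. In LNA29 replicates 44, 46, 48, 50, 52 and 54 they were 2225, 1902, 2151, 1500, 2075 and 2301. Every LNA29 liver was below the saline median, and 5 of the 6 saline livers were above the highest LNA29 liver. The exception was saline replicate 45, which lay within the LNA29 range. The means were 3090.5 ± 781.4 in saline livers and 2026 ± 291.7 in LNA29 livers (SD, n = 6 each), so that the LNA29 mean was 65.6% of the saline mean. The difference on the log2 scale was -0.58 with a 95% confidence interval from -0.97 to -0.19 (standard error 0.19, limma adjusted p = 0.324, exact p = 0.0195). Without saline replicate 45 it was -0.74 with an exact p of 0.00216, the smallest that the test can give. That p follows from leaving out the only saline liver within the LNA29 range. Without LNA29 replicate 50 the log2 fold change was -0.49 with an exact p of 0.0390.

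Abcg5 ranged from 809.5 to 1656 in saline livers with a median of 1268, and from 679.2 to 1425 in LNA29 livers with a median of 955.6. LNA29 replicates 44 and 54 were above the saline median, and the groups overlapped over most of their range. The log2 fold change of Abcg5, the gene with the seed match shown above, was -0.27 with a 95% confidence interval from -0.71 to 0.17 (standard error 0.21, limma adjusted p = 0.808, exact p = 0.240), and without LNA29 replicate 48 it was -0.16. The log2 ratio of Abcg5 to Abcg8 was -1.30 in saline livers and -0.999 in LNA29 livers, a difference of 0.30 with a 95% interval from -0.14 to 0.69 (exact p = 0.121, adjusted p = 0.364). The unequal size of the 2 changes was therefore within the spread between livers.

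Abcg5 and Abcg8 lie head to head on chromosome 17. Their RefSeq start sites, at 84683011 and 84683121 in GRCm38.p6, are 110 bases apart on opposite strands, so that a common stretch of DNA lies between both. After group means were removed, their log2 values were related across the 12 livers with r = 0.64 (permutation p = 0.0264, adjusted p = 0.119 over 9 relations) and rho = 0.66 (permutation p = 0.0234, adjusted p = 0.108). Within the groups r was 0.86 in saline livers and 0.41 in LNA29 livers, and without the 2 livers farthest in Abcg5 it was 0.61. Saline replicate 45 had the lowest saline value of both genes. Of the 8988 genes whose mean reached 100, each compared with the mean of this pair, the most alike were Ttpal (r = 0.95), Lpar6 (r = 0.91), H6pd (r = 0.89), Lrig2 (r = 0.89) and Acsm5 (r = 0.88). These were picked as the highest values and were not tested.

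Mylip ranged from 438.6 to 670.0 in saline livers and from 414.6 to 650.0 in LNA29 livers, with medians of 518.5 and 563.9. For Mylip the log2 fold change was 0.03 with a 95% confidence interval from -0.36 to 0.43 (limma adjusted p = 0.981, exact p = 0.823), and its sign changed when certain single livers were left out, down to -0.02. Lpcat3 ranged from 2170 to 3418 in saline livers with a median of 2998, and from 2540 to 4182 in LNA29 livers with a median of 3440. LNA29 replicates 44, 46 and 48 were above every saline liver and the other 3 were not. The log2 fold change of Lpcat3 was 0.20 with a 95% confidence interval from -0.15 to 0.54 (limma adjusted p = 0.835, exact p = 0.245), and it was 0.11 without saline replicate 47.

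Pltp varied most between animals. It ranged from 1113 to 5295 in saline livers with a median of 2044, and from 871.9 to 1952 in LNA29 livers with a median of 1448. Saline replicates 45 and 47 had 3474 and 5295, and the lowest saline liver, replicate 43, was below 4 of the LNA29 livers. The means were 2549 ± 1579 and 1391 ± 415.3 (SD, n = 6 each). For Pltp the log2 fold change was -0.72 with a 95% confidence interval from -1.39 to -0.05 (standard error 0.32, limma adjusted p = 0.590, exact p = 0.0931). Without saline replicate 43 it was -0.92 with an exact p of 0.0346, and without saline replicate 47, the highest liver, it was -0.47 with an exact p of 0.184.

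Scarb1 had the highest level of the 10 genes. It ranged from 7778 to 13848 in saline livers with a median of 10001, and from 8696 to 11094 in LNA29 livers with a median of 9261. All LNA29 livers lay inside the saline range. The log2 fold change was -0.09 with a 95% confidence interval from -0.39 to 0.21 (limma adjusted p = 0.927, exact p = 0.513).

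**Figure D2:**
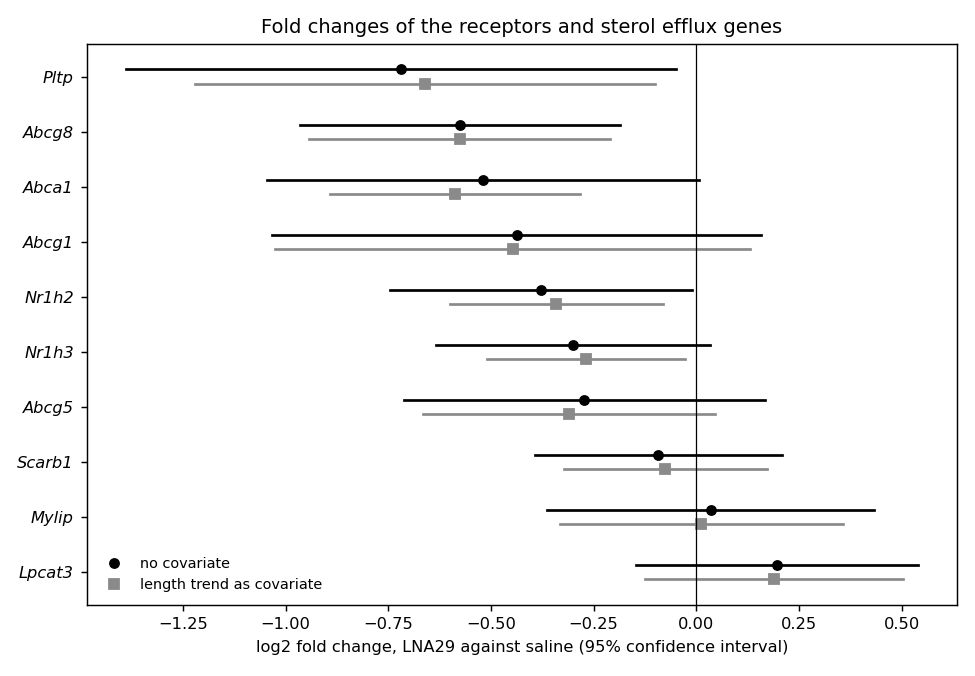
log2 fold change of each of the 10 genes, LNA29 against saline (x axis), with its 95% confidence interval, from limma without a covariate (black circles) and with the transcript length trend of each library as a covariate (grey squares). Without the covariate the intervals of Pltp, Abcg8 and Nr1h2 lie below 0, and with it those of Abca1 and Nr1h3 do too. The covariate was computed from the same values and within each group, so it could move the fold changes only a little.

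To compare levels between genes, reads were divided by the length of the longest protein-coding transcript and by library size. By the saline median of this level, in RPKM, the order was Scarb1 (23.6), Nr1h3 (11.2), Lpcat3 (8.10), Pltp (6.20), Nr1h2 (5.99), Abcg8 (5.45), Abcg5 (2.97), Mylip (0.968), Abca1 (0.323) and Abcg1 (0.205). The saline ranges of neighbours in this order overlapped in every case, but some overlaps came only from saline replicate 49. These were Scarb1 with Nr1h3, Nr1h3 with Lpcat3, Abcg5 with Mylip, and Mylip with Abca1. Without that liver the highest saline Lpcat3 was 8.94, below the lowest saline Nr1h3 of 9.37. For Mylip and Abcg5 these values were 1.13 and 1.86, and for Abca1 and Mylip 0.465 and 0.661. In every liver Scarb1 was above Nr1h3. With the mean transcript length in place of the longest, the saline ranges of Scarb1 and Nr1h3 did not overlap (27.6 to 70.2 and 10.2 to 19.4). With that length 5 of the 10 genes took another place, among them Abcg1, which then stood above Abca1. The 2 pumps Abca1 and Abcg1 were thus the lowest of the set with either length.

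Nr1h3 was related to the 8 transporters and enzymes across livers, with group means removed, and with Benjamini-Hochberg adjustment over the same 9 relations. By r the strongest was with Pltp, at r = 0.79 (permutation p = 0.00775, adjusted p = 0.0697) and rho = 0.66 (permutation p = 0.0405, adjusted p = 0.108). Within the groups it was 0.81 in saline and 0.76 in LNA29 livers, and without the 2 livers farthest in Nr1h3 it was 0.61. With Abca1 the relation was negative, at r = -0.63 (permutation p = 0.0465, adjusted p = 0.139) and rho = -0.61 (permutation p = 0.0481, adjusted p = 0.108). It rested on saline replicates 47 and 49, without which r was -0.34. By rho the strongest was with Scarb1, at rho = 0.67 (permutation p = 0.0420, adjusted p = 0.108) and r = 0.48 (permutation p = 0.204, adjusted p = 0.412). With the other 5 genes r lay between -0.37 and 0.17, and no relation had an adjusted p under 0.05.

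The libraries differed in how their values depended on transcript length, and several of the 10 genes followed this. For each library the length trend is the Spearman rho, over 12410 genes, between transcript length and the deviation of a gene from the other livers of its group. The trend was thus computed from the same values, so a long or short transcript follows it in part by construction. The p-values given for it below are therefore not independent evidence, and the share of all genes that follow it was not counted. The trend ran from -0.342 to 0.501 in saline livers, where replicate 49 was highest, and from -0.239 to 0.280 in LNA29 livers. Saline replicate 49 also had the smallest share of albumin reads, 35.7%, against 43.6% to 46.9% in the other libraries. Abca1, whose transcript of 10262 bases is the longest of the set, followed the trend with r = 0.95 over the 12 livers after centring on the groups (permutation p = 2e-05, adjusted p = 0.0002 over the 10 genes) and rho = 0.95 (permutation p = 2e-05, adjusted p = 0.0002). The r was 0.96 in saline livers, 0.96 in LNA29 livers and 0.95 without saline replicates 43 and 49.

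The receptors went the other way. Nr1h2 had r = -0.80 (permutation p = 0.0105, adjusted p = 0.0405) and rho = -0.81 (permutation p = 0.00661, adjusted p = 0.033). Nr1h3 had r = -0.76 (permutation p = 0.0122, adjusted p = 0.0405) and rho = -0.73 (permutation p = 0.0165, adjusted p = 0.0551). Without the same 2 saline livers these were -0.60 and -0.60. Within LNA29 livers alone they were -0.63 and -0.33. Abcg8 had r = 0.02. The other 6 genes had r between -0.55 and 0.62 with adjusted p of 0.0761 or more. The negative relation of Nr1h3 with Abca1 thus joins genes that followed the trend in opposite directions. Pltp, which was positively related to Nr1h3, had r = -0.55 with the trend (permutation p = 0.133, adjusted p = 0.222). Within the groups this was -0.75 in saline and 0.16 in LNA29 livers. The part of the trend in either relation was not tested. Without saline replicate 49, which had the highest trend, the log2 fold changes were -0.47 for Nr1h2 (exact p = 0.0303) and -0.37 for Nr1h3 (exact p = 0.0455).

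**Figure D3:**
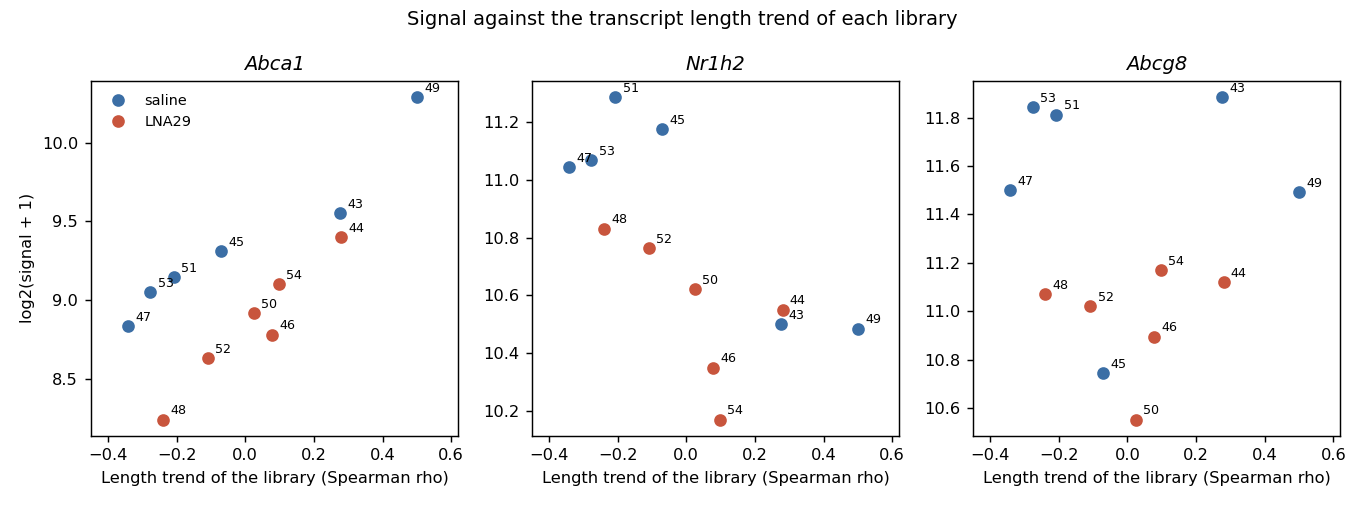
log2(signal + 1) of Abca1, Nr1h2 and Abcg8 (y axes, each with its own range) against the length trend of each library (x axis, Spearman rho), 1 point per liver with its replicate number, saline in blue and LNA29 in red. Abca1 climbs with the trend in both groups with the red points below the blue, Nr1h2 declines, and Abcg8 had r = 0.02. Each trend is taken against livers of the same group, so a red and a blue point at the same trend need not depend on length alike.

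When the length trend was added to the limma model, a choice made after seeing the data, the log2 fold change of Abca1 was -0.59 with a 95% confidence interval from -0.89 to -0.28 (standard error 0.14, limma adjusted p = 0.0474). Abca1 was then the only one of the 10 with an adjusted p under 0.05, while the number of genes called over the whole table went from 20 to 220. The covariate was itself computed from deviations of these values within the groups. Smaller standard errors and p-values in this fit are therefore in part built in. This call of Abca1 was lost whichever of the 12 livers was left out, with adjusted p from 0.0587 to 0.132 in limma and log2 fold changes from -0.66 to -0.54. The log2 fold changes of Abcg8 (-0.58, limma adjusted p = 0.115), Nr1h2 (-0.34, limma adjusted p = 0.197), Nr1h3 (-0.27, limma adjusted p = 0.297) and Pltp (-0.66, limma adjusted p = 0.263) moved little in size. This was largely fixed in advance, because each trend was taken against the livers of the same group. Such a covariate cannot account for a length difference between the groups. What produced the length trend was not tested.

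Other genes of the pathway were counted by lists of LXR partners, oxysterol enzymes, other LXR-induced genes, carriers of HDL and cellular cholesterol, and canalicular transporters. Of the 73 genes in these lists, 68 were tested, of which 51 (75%) were lower and 17 higher in LNA29 livers. The median log2 fold change of the 68 was -0.24. Of all tested genes 61.4% were lower, with a median of -0.093, and this is the background for each list below as well. None had a limma adjusted p under 0.05, the smallest being 0.138. Without adjustment 15 were lower and 1 higher with a limma p under 0.05, where all tested genes gave 5.97% lower and 1.95% higher. The exact test gave 14 lower and none higher, where all tested genes gave 6.34% and 2.15%.

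Of the 14 partners and cofactors, 11 were lower and 2 of these had an unadjusted p under 0.05. The corepressor Ncor1 was 1 of these (log2 fold change -0.60, standard error 0.28, exact p = 0.106). Among the higher members the coactivator Ncoa2 was at 0.34 (standard error 0.49, exact p = 0.569). The corepressor Nrip1 had at most 4 reads in any liver and none in 5, so that its fitted value of 1.98 depends on the value of 1 given to a gene without reads. Of the 9 oxysterol enzymes tested, 7 were lower and 3 of these had an unadjusted p under 0.05, with a median of -0.34. Ch25h and Sult2b1 were below the filter, as were Pnpla3, Abcg4 and Npc1l1 of the other lists. Akr1d1, a reductase of bile acid synthesis, had 2754 ± 1084 in saline livers and 1591 ± 289.9 in LNA29 livers (SD, n = 6 each), which is -0.72 on the log2 scale (standard error 0.22, limma adjusted p = 0.265, exact p = 0.0130). Cyp39a1 and Cyp8b1, hydroxylases of bile acid synthesis, were the highest members at 0.39 (standard error 0.31) and 0.15 (standard error 0.33).

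**Figure D4:**
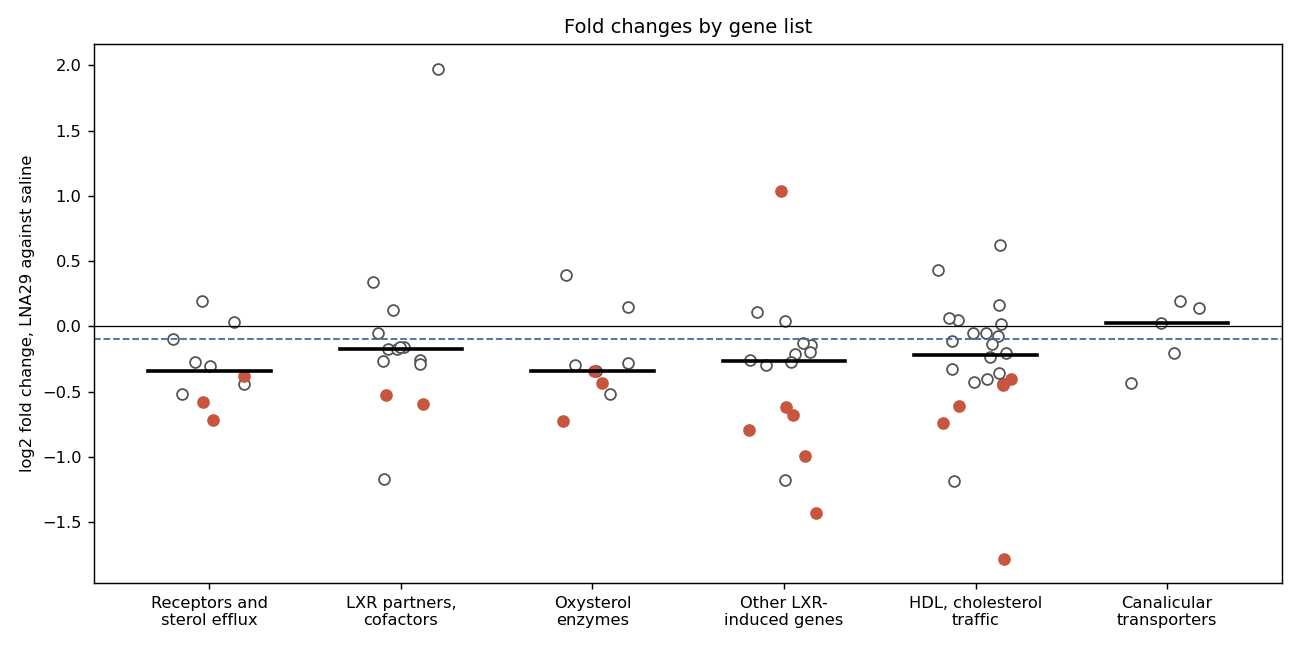
log2 fold change, LNA29 against saline (y axis), of the 10 receptor and sterol efflux genes and of the tested genes of 5 pathway lists (x axis), 1 point per gene, spread sideways for legibility. Filled red points have an unadjusted limma p under 0.05, black bars are list medians and the dashed line is the median of all tested genes at -0.093; the median of the canalicular transporters, at 0.02, is the only one above 0.

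Of the 16 other LXR-induced genes tested, 13 were lower, 5 of these with an unadjusted p under 0.05. Scd1, the stearoyl-CoA desaturase, had 16585 ± 9841 in saline livers and 5602 ± 1979 in LNA29 livers (SD, n = 6 each), which is -1.43 on the log2 scale (standard error 0.34, limma adjusted p = 0.138, exact p = 0.0108). Fasn, the fatty acid synthase, was at -0.79 (standard error 0.23, limma adjusted p = 0.261, exact p = 0.0173). Lpl, the lipoprotein lipase, was the 1 list gene higher with an unadjusted limma p under 0.05, at 1.04 (standard error 0.41, limma adjusted p = 0.491, exact p = 0.0628). It varied widely in LNA29 livers, from 512.2 to 3924.5 with a median of 828.5, and ranged from 317.5 to 670 in saline livers. Abca7 was at 0.11 (standard error 0.27).

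In the list of HDL and cholesterol traffic, 18 of the 24 genes tested were lower, 5 with an unadjusted p under 0.05. Lrp1, an endocytic receptor for lipoprotein remnants, was at -0.45 (standard error 0.14, limma adjusted p = 0.315, exact p = 0.00866). Apoa1 and Soat1 were at 0.62 (standard error 0.77) and 0.44 (standard error 0.42), neither with an unadjusted limma p under 0.05. Among the 5 canalicular transporters, none had an unadjusted p under 0.05, with Abcc2 at -0.43, Abcb11 at -0.20, Tmem30a at 0.14 and Atp8b1 at 0.19. The canalicular genes beside Abcg5 and Abcg8 thus had a median of 0.02.

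Macrophages express Nr1h3, Abca1, Abcg1 and Pltp as well as hepatocytes do, so markers of other liver cells were set beside the results. The summed signal of 13 Kupffer cell and macrophage markers, of which Cd5l is also in the list of other LXR-induced genes, ranged from 15562 to 24667 in saline livers and from 14625 to 28781 in LNA29 livers (exact p = 0.890, adjusted p = 0.890 over 7 marker lists). In the limma fit 10 of the 13 were lower and 3 higher, where 61.4% of all tested genes were lower. Marco, a macrophage scavenger receptor, and Lyz2, a lysozyme, were 2 of the higher ones, at 513.6 and 1066 in the saline mean and 1258 and 1675 in the LNA29 mean, both with an unadjusted p under 0.05 and neither with an adjusted p under 0.05. The summed signal of 10 endothelial markers ranged from 7413 to 8150 and from 6179 to 7945, a log2 difference of -0.17 (exact p = 0.0390, adjusted p = 0.182), with 8 of the 10 markers lower in the limma fit on log2 values and 6 of the 10 lower by the mean signal. The sums of hepatocyte markers overlapped between the groups (exact p = 0.660, adjusted p = 0.890), as did those of stellate cells, bile duct cells, blood and intestine (exact p from 0.0519 to 0.844, adjusted p from 0.182 to 0.890). The hepatocyte sum of saline replicate 49 was the lowest, at 3.35e+07, against a saline median of 9.13e+07. LNA29 livers ranged from 8.15e+07 to 9.715e+07 in this sum. Npc1l1, the sterol importer of the intestine, was listed at 1 in every liver. The part of cell makeup in the values of the 10 genes was not tested.

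Some values are less certain because reads may be shared with other genes. Values were whole multiples of 1 read in all 12 livers for 7 of the 10 genes, but in none for Nr1h2 and Lpcat3 and in 1 for Pltp, where the reads had been divided between features. In GENCODE M21, Pltp shares 495 of its 2562 exon bases (19.3%) with Ctsa on the opposite strand, and Lpcat3 shares 334 of 3268 (10.2%) with Emg1. The strand setting of the counting is not given in the sources used here. Ctsa had a log2 fold change of -0.09 (limma adjusted p = 0.933) and Emg1 of 0.30 (limma adjusted p = 0.734). Abcg5 and Abcg8 share 82 bases.

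Promoter windows of 300 bases (250 before and 50 after the start, from RefSeq, GRCm38.p6) were given for 8 of the 10 genes. The DR4 element that LXR and its partner bind in textbooks, a direct repeat of AGGTCA with a spacer of 4 bases, was searched on both strands with up to 2 mismatches. It was in none of the 10 windows of these 8 genes and in 993 of all 32851 windows (3.02%), which says only that these letters are not in these windows.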

How the data were processed

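Polyadenylated RNA from 6 saline and 6 LNA29 livers was sequenced as single reads. The authors mapped the reads with MapSplice2 and estimated them per gene with RSEM, and the submitters' processing notes name RSEM and mm9. The versions are not given in the sources used here. The deposited signal values were divided by the upper quartile of each library and multiplied by 1000, with a gene without reads set to 1. Between 92.2% and 93.9% of values per liver were whole multiples of 1 read (within 0.02), so depth could be stated, but a count test was not used. Another 2 columns, without names, repeat Abcg8 with the authors' own summary of it; these columns and the authors' means, fold changes and p-values were not used.

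Values were tested on the log2(value + 1) scale with limma-trend (limma 3.58.1 in R 4.3.3), unpaired and without covariates, over genes with a mean of at least 10. Correlations used 100000 shuffles within groups. Scripts (Python 3.11.15, numpy 2.4.6, scipy 1.17.1, pandas 2.3.3) were tested on simulated data. Nothing states that the numbered livers are paired, and each is taken as 1 animal. The p-values for group differences set each difference against the spread between animals. Coordinates, lengths, UTRs and promoters come from GRCm38, not the mm9 of the notes, and the table carries no coordinates. All 10 genes are named with their values; in each pathway list the 2 genes with the smallest limma p in each direction are named, except some that are not reported here, and the 5 genes most alike to Abcg5 and Abcg8. The 10 genes, the lists and the tests were chosen with earlier results of these data known. Alternatives were other pseudocounts, filters, scalings, a robust fit, array weights, leaving out each liver and a length trend covariate. That covariate was chosen after seeing the data and was computed from the same values.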

Additional observations from a re-analysis of the deposited data

Results flagged for a closer look

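Abcg8 in saline replicate 45 stood apart from the other saline livers. Its log2(value + 1) was 10.74, against 11.49 to 11.89 in the other 5, and the gap took up 0.656 of the range of the group, where Dixon's 95% critical value for 6 samples is 0.625. It was 1 of 20 groups examined (10 genes in saline and LNA29 livers), and chance alone would flag about 1 in 20. Abcg5 was also lowest in this liver among saline livers, at 809.5. The cause was not tested.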

How the results depend on the processing

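No paired analysis was possible because the saline and LNA29 livers share no replicate numbers. The lower value of Abcg8 kept its direction and an unadjusted p under 0.05 under all alternatives, with log2 fold changes from -0.74 to -0.49 when single livers were left out (exact p from 0.00216 to 0.0390) and from -0.65 to -0.51 otherwise. The genes called over the whole table went from 20 to 10 after a shift to a common median, 58 with array weights and 220 with the length trend as covariate, and from 1 to 29 when single livers were left out. The count was 1 without saline replicate 43 or LNA29 replicate 50, 52 or 54. None of the 10 genes and none of the pathway genes was called under any alternative except the length covariate, which called 1 of the 10 (Abca1, a call lost when any single liver was also left out, while Abcg8 was called without saline replicate 45) and 6 pathway genes, among them Ncor1, Akr1d1 and Scd1. The number of the 10 with an exact p under 0.05 was 2 after the shift, where Abca1 joined Abcg8, and from 1 to 3 when single livers were left out. Nr1h2 was added without saline replicate 43 or 49 or LNA29 replicate 48, Nr1h3 without saline replicate 49 or LNA29 replicate 54, Abca1 without saline replicate 47 or LNA29 replicate 44, Abcg1 without saline replicate 53 or LNA29 replicate 48, and Pltp without saline replicate 43. Other settings raised the exact p. After the shift it was 0.1645 for Nr1h2, 0.245 for Nr1h3 and 0.158 for Pltp, and with another scaling (TMM) 0.141, 0.208 and 0.143. Leaving out other single livers raised the exact p up to 0.119 for Nr1h2, 0.162 for Nr1h3, 0.154 for Abca1, 0.180 for Abcg1 and 0.19 for Pltp. Leaving out single livers reversed the sign of values that had not passed a test: the log2 fold change of Mylip (-0.021 to 0.11), the log2 ratios of Abca1 to Abcg1 (-0.26 to 0.15) and of Nr1h3 to Nr1h2 (-0.048 to 0.15), and r of Nr1h3 with Abcg1 (-0.11 to 0.25). The relation of Nr1h3 with Pltp had an adjusted p of 0.0176 without saline replicate 45, and that of Abcg5 with Abcg8 0.0356 without LNA29 replicate 48. Among log2 fold changes that passed no adjusted test, leaving out single livers gave -0.92 to -0.47 for Pltp, -0.39 to -0.16 for Abcg5, 0.11 to 0.27 for Lpcat3, -0.63 to -0.33 for Abca1 and -0.17 to -0.0010 for Scarb1. With array weights Lpcat3 was at 0.064. The median of the 10 stayed between -0.39 and -0.28. Count tests with edgeR and DESeq2 were planned and not run because a check for whole reads did not pass in 6 of the 12 libraries. Between 92.2% and 93.9% of values were whole multiples of 1 read in each of the 12. Depth limits Abcg1 most, at 6 to 29 reads per liver. The cause of these shifts was not tested.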
